A study of Saccharomyces cerevisiae with 11 samples.

Results

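RNA polymerase I is the enzyme that transcribes the large ribosomal RNA precursor in the nucleolus. Transcripts of 10 of its genes were followed here in budding yeast (*Saccharomyces cerevisiae*) that made a nuclear huntingtin fragment, out of 7126 genes in the count table. The genes were taken by name. *RPA190*, *RPA135*, *RPA49*, *RPA34*, *RPA43*, *RPA14* and *RPA12* encode the 7 subunits found only in polymerase I, *RPC40* and *RPC19* encode 2 subunits that it shares with RNA polymerase III, and *RRN3* encodes the factor that carries the enzyme to its promoter. All 10 passed the filter on low counts, which left 6321 genes to test.

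The cells were W303 strains with a GAL-NLS-Htt-GFP gene integrated in the genome. This gene makes an N-terminal piece of human huntingtin (Htt) with a nuclear localization signal and GFP, and it is switched on by galactose. The piece carries a short glutamine tract (Htt25Q, the control) or an expanded, aggregation-prone one (Htt103Q), and the name gives the number of glutamines (Q). Each strain also held a low-copy HIS plasmid that was empty ([V]) or carried *SLX5* ([SLX5]), which encodes a subunit of the SUMO-targeted ubiquitin ligase Slx5/Slx8. The chromosomal *SLX5* gene was present in all groups. All cultures were grown in raffinose (2%) at 25 °C, and galactose was then added to 2%. RNA for sequencing was taken after 4 h with galactose. Group sizes were 2 libraries for Htt25Q [V], lettered a and b, and 3 for each of the other groups, lettered a to c. A letter stands for a separate clone, grown as its own culture. The study asked what the expanded tract does to the transcriptome and what extra *SLX5* does to that. The Htt25Q and Htt103Q genes sit in different strains, so that the tract length and any other difference between these strains cannot be told apart.

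The 11 libraries held 19942070 to 29440801 assigned counts, and the 10 genes together took 0.0539% to 0.125% of them. Each gene was backed by 293 to 6241 counts per library. Counts on rRNA genes made up 1.02% to 2.40% of the 4 libraries lettered a, against 0.254% to 0.958% of the other 7. The plasmid was visible in the libraries, since *SLX5* stood at 97.0 ± 3.68 CPM (counts scaled to library size; SD, n = 2) in Htt25Q [V] and 1179 ± 34.8 (n = 3) in Htt25Q [SLX5]. It stood at 56.4 ± 7.83 (n = 3) in Htt103Q [V] and 636 ± 131 (n = 3) in Htt103Q [SLX5], so the plasmid groups also differed from each other in *SLX5* level.

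In the enzyme, Rpa190 and Rpa135 form the catalytic core and hold the active site between them. Rpc40 and Rpc19 form the scaffold on which the core is assembled. Rpa43 and Rpa14 make up a stalk, and Rpa43 is the surface that Rrn3 binds when the enzyme is made ready for initiation. Rpa49 and Rpa34 form a pair related to initiation and elongation factors of RNA polymerase II, and Rpa12 takes part in the cleavage of backtracked RNA. In growing yeast the enzyme makes most of the RNA of the cell, and its genes belong to the ribosome biogenesis genes, which respond together to nutrients and stress.

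The promoters of ribosome biogenesis genes often hold the PAC element, bound by Dot6 and Tod6, and the RRPE element, bound by Stb3. The cores of both (PAC GATGAG and RRPE AAAATTTT, each searched on both strands) were looked for in the reference genome from 250 bases before to 50 bases after the first coding base, 300 bases in all. In 6001 such windows of protein-coding genes in RefSeq's R64 sequence, PAC cores were found in 20.4%, RRPE cores in 9.03% and both in 4.38%. Among the 10 genes, 9 windows held a PAC core, 8 held an RRPE core and 8 held both. *RPC19* held a PAC core alone, and *RPA12* was without either match, as were 75.0% of all windows. The stretches that join the closest PAC and RRPE matches are shown in the direction of each gene, with 10 bases on either side, because they are the sequence feature that most of these genes share. Capitals mark the 2 cores, and CTCATC is the PAC core read on the other strand:
RPA190, chrXV:960784-960835, plus strand: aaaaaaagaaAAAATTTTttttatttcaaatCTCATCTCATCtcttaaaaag
RPA135, chrXVI:581285-581341, minus strand: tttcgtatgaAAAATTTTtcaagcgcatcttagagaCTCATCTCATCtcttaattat
RPA49, chrXIV:182723-182763, minus strand: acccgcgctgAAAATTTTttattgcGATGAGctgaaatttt
RPA34, chrX:140306-140342, plus strand: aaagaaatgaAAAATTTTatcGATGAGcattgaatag
RPA43, chrXV:960321-960374, minus strand: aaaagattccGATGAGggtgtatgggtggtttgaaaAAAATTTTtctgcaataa
RPA14, chrIV:769390-769481, plus strand: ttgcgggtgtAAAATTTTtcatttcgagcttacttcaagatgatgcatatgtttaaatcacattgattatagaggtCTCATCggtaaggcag
RPC40, chrXVI:746903-746952, minus strand: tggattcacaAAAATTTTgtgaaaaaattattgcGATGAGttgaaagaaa
RPC19, chrXIV:412634-412659, plus strand: attcacctgcGATGAGctggaaaaaa
RRN3, chrXI:208033-208088, plus strand: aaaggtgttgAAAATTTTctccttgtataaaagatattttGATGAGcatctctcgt

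In 7 of the 8 pairs the RRPE core lay farther from the gene than the PAC core, and *RPA43* had the reverse order. The gap between the cores was 3 bases in *RPA34* and 58 in *RPA14*, and 7 to 22 in the other 6. *RPA190* and *RPA135*, the genes of the catalytic core, both held overlapping PAC cores in tandem on the other strand. A further PAC match in the *RPA135* window spans the start codon itself. *RPA190* (YOR341W, chrXV:960987-965981) and *RPA43* (YOR340C, chrXV:959202-960182) are divergent neighbours, 804 bases apart. The other genes lie at chrXVI:577585-581196 (*RPA135*, YPR010C), chrXIV:181361-182608 (*RPA49*, YNL248C), chrX:140437-141138 (*RPA34*, YJL148W), chrIV:769525-769938 (*RPA14*, YDR156W), chrX:555195-555572 (*RPA12*, YJR063W), chrXVI:745828-746835 (*RPC40*, YPR110C), chrXIV:412771-413199 (*RPC19*, YNL113W) and chrXI:208247-210130 (*RRN3*, YKL125W). The coding length in the files equalled the span in R64 for all 10, so none has an annotated intron. The strains are W303, whose promoters can differ from the reference, and a match of letters is not evidence of binding.

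**Figure D1:**
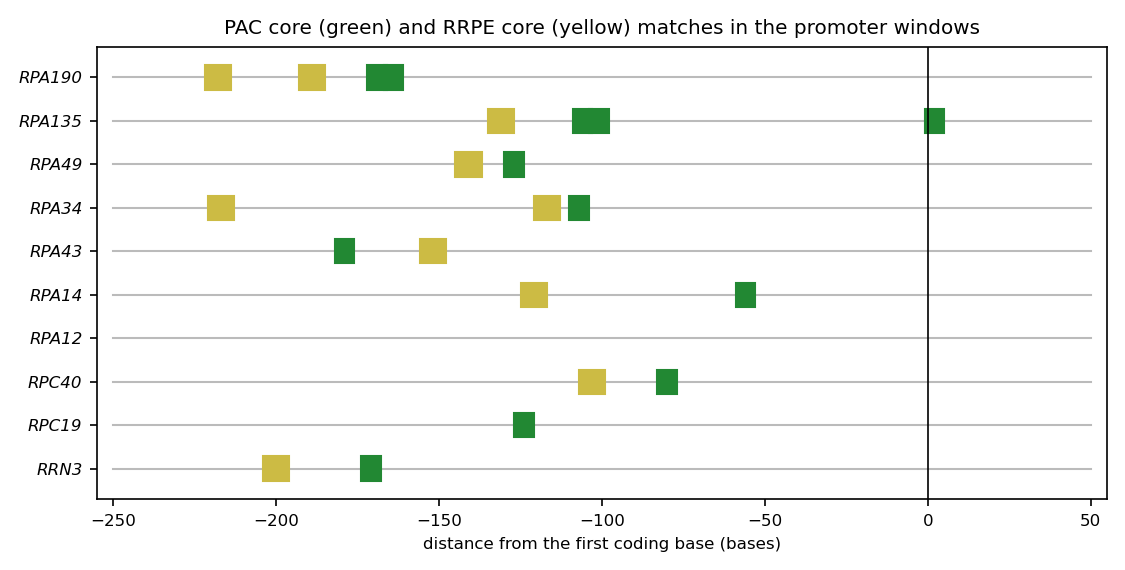
Positions of the PAC core (green) and RRPE core (yellow) in the promoter window of each gene, by distance in bases from the first coding base. Of the 10 windows, 8 hold both cores, *RPC19* holds PAC alone and *RPA12* holds neither.

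Levels of different genes were compared in TPM, the length-corrected share of transcripts that the authors deposited. In Htt25Q [V] the mean TPM were 108 for *RPC40* and 104 for *RPA14*, then 70.3 for *RPA34*, 66.6 for *RPA49*, 55.2 for *RPC19* and 52.1 for *RPA12*. The place of *RPC19* is uncertain, because most of the reads that it could share with the reading frame YNL114C were given to the latter, and with all of them its TPM would be 329 and 313 in the 2 libraries, above every other gene of the 10. The lower end was 26.9 for *RPA43*, 21.2 for *RPA135*, 16.6 for *RRN3* and 7.56 for *RPA190*. Transcripts of the scaffold and of the small subunits were thus more abundant than those of the catalytic core. Along the order of medians over all 11 libraries, *RPA12* was above *RPA43* in 11 of 11 libraries and *RPA135* was above *RPA190* in 11 of 11. The other neighbours in that order changed places in at least 1 library, for example *RPC40* and *RPA14*, of which *RPC40* was the higher in 5 of 11.

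Cells with the expanded tract had higher levels of most polymerase I transcripts. With the empty vector, 7 of the 10 genes were higher in Htt103Q [V] than in Htt25Q [V] and none was lower (edgeR's quasi-likelihood test, Benjamini-Hochberg adjusted p under 0.05 over all genes tested), where 27.3% of all genes were called higher and 29.5% lower. The median log2 fold change of the 10 genes was 0.52, against -0.021 over all genes tested. The genes that rose were *RPA190*, *RPA135*, *RPA49*, *RPA43*, *RPC40*, *RPC19* and *RRN3*, and *RPA12*, *RPA14* and *RPA34* did not pass. In the same 7 genes every Htt103Q [V] library lay above both Htt25Q [V] libraries, which held for 33.9% of all genes.

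In the catalytic core, *RPA190* stood at 65.0 and 60.2 CPM in Htt25Q [V] (libraries a and b) and at 155, 138 and 116 CPM in Htt103Q [V] (a, b and c). The values were 53.2, 65.8 and 52.2 CPM in Htt25Q [SLX5] and 125, 98.8 and 113 CPM in Htt103Q [SLX5]. No Htt103Q library came near the highest Htt25Q library. The log2 fold change of *RPA190* was 1.12 (SE 0.14, adjusted p = 9.81e-05) with the vector and 0.98 (SE 0.12, adjusted p = 0.000112) with *SLX5*, by edgeR's quasi-likelihood test, so that the transcript was 2.18-fold and 1.97-fold as abundant in Htt103Q. *RPA135* had 129.6 and 120.2 CPM in Htt25Q [V], 217, 178 and 131 CPM in Htt103Q [V], 105, 128 and 112 CPM in Htt25Q [SLX5], and 146, 143 and 148 CPM in Htt103Q [SLX5]. Its Htt103Q values were also all above its Htt25Q values, but library c of Htt103Q [V] was close to library a of Htt25Q [V]. Its log2 fold change was 0.49 (SE 0.16, adjusted p = 0.0224) with the vector and 0.34 (SE 0.14, adjusted p = 0.0618, not called) with *SLX5*.

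For *RRN3*, the initiation factor, the values were 51.4 and 45.7 CPM in Htt25Q [V] and 122, 104 and 88.8 CPM in Htt103Q [V]. With *SLX5* they were 36.1, 36.8 and 35.9 CPM in Htt25Q and 99.1, 80.3 and 102.96 CPM in Htt103Q. The 2 tract lengths were widely separated on both plasmids. The log2 fold changes were 1.12 (SE 0.14, adjusted p = 8.64e-05) with the vector and 1.37 (SE 0.12, adjusted p = 1.72e-05) with *SLX5*, which was the largest change of the 10 genes on that plasmid at 2.59-fold.

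In the stalk, the subunits that sit together differed. *RPA43* had 39.7 and 33.9 CPM in Htt25Q [V], 60.2, 57.3 and 44.7 CPM in Htt103Q [V], 25.3, 28.9 and 27.0 CPM in Htt25Q [SLX5], and 44.1, 41.1 and 41.3 CPM in Htt103Q [SLX5]. All Htt103Q libraries were above all Htt25Q libraries, and the log2 fold change was 0.56 (SE 0.12, adjusted p = 0.00272) with the vector and 0.64 (SE 0.11, adjusted p = 0.000691) with *SLX5*. *RPA14* had 43.5 and 38.0 CPM in Htt25Q [V] and 59.1, 51.3 and 37.7 CPM in Htt103Q [V], so the groups overlapped through library c. With *SLX5* it had 38.8, 44.2 and 40.9 CPM in Htt25Q and 37.2, 39.3 and 38.0 CPM in Htt103Q, also with overlap. Its log2 fold change was 0.28 with the vector (95% confidence interval -0.050 to 0.61) and -0.11 with *SLX5* (-0.41 to 0.18), and neither was called. The *RPA14* coding sequence overlaps the dubious reading frame YDR157W by 8 bases on the same strand.

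**Figure D2:**
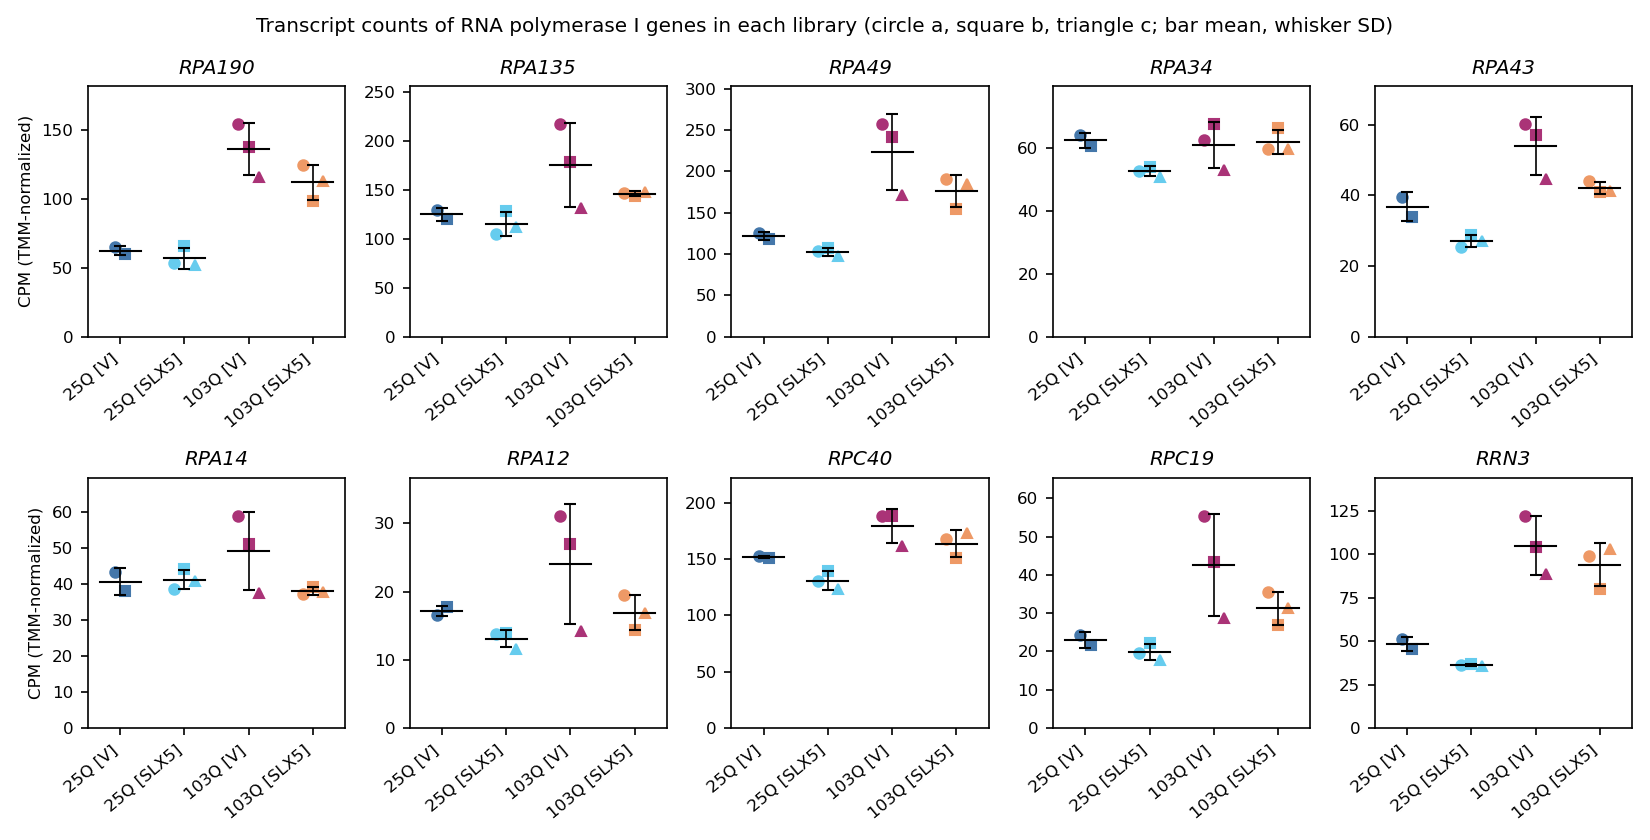
CPM (TMM-normalized, vertical axis from 0) of the 10 genes in each of the 11 libraries, by group, with the mean (bar) and SD (whisker, n = 2 or 3). *RPA190* and *RRN3* show the widest gap between Htt25Q and Htt103Q. Over both plasmids, the tract lengths overlap in *RPA34*, *RPA14*, *RPA12* and, slightly, *RPC40*. Library c (triangle) is the lowest of the 3 Htt103Q [V] libraries in every panel.

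The pair Rpa49 and Rpa34 showed a like split. *RPA49* had 125 and 118 CPM in Htt25Q [V], 257, 242 and 172 CPM in Htt103Q [V], 103.1, 107 and 97.0 CPM in Htt25Q [SLX5], and 190.3, 154 and 185 CPM in Htt103Q [SLX5]. The tract lengths did not overlap, and the log2 fold change was 0.88 (SE 0.15, adjusted p = 0.000589) with the vector and 0.78 (SE 0.13, adjusted p = 0.000628) with *SLX5*. *RPA34* had 64.0 and 60.5 CPM in Htt25Q [V] and 62.3, 67.4 and 52.8 CPM in Htt103Q [V], with the Htt103Q libraries on both sides of the Htt25Q libraries. With *SLX5* it had 52.6, 53.9 and 50.8 CPM in Htt25Q and 59.7, 66.1 and 59.7 CPM in Htt103Q. Its log2 fold change was -0.033 (95% confidence interval -0.25 to 0.18, not called) with the vector and 0.24 (SE 0.087, adjusted p = 0.0370) with *SLX5*. That last call was lost when any 1 of Htt25Q [SLX5] a, b or c or of Htt103Q [SLX5] b or c was left out (adjusted p = 0.0502 to 0.111).

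*RPA12*, the cleavage subunit, was the least counted of the 10, with 16.6 and 17.7 CPM in Htt25Q [V] and 31.1, 26.9 and 14.2 CPM in Htt103Q [V]. With *SLX5* it had 13.8, 13.9 and 11.6 CPM in Htt25Q and 19.5, 14.3 and 16.9 CPM in Htt103Q. The Htt103Q [V] libraries spread around the Htt25Q [V] libraries, with library c below both. The log2 fold change was 0.49 (95% confidence interval -0.077 to 1.05) with the vector and 0.37 (-0.14 to 0.88) with *SLX5*, and neither was called. Without library c of Htt103Q [V], *RPA12* (0.77, adjusted p = 0.00113) and *RPA14* (0.45, adjusted p = 0.00216) were called higher with the vector.

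The subunits shared with polymerase III rose in both comparisons. *RPC40* had 153 and 151 CPM in Htt25Q [V], 189, 188 and 162 CPM in Htt103Q [V], 131, 139 and 123 CPM in Htt25Q [SLX5], and 168, 151 and 173 CPM in Htt103Q [SLX5]. Within each plasmid the tract lengths did not overlap, but Htt103Q [SLX5] b was at the level of Htt25Q [V]. The log2 fold change was 0.24 (SE 0.091, adjusted p = 0.0424) with the vector and 0.32 (SE 0.081, adjusted p = 0.00603) with *SLX5*. *RPC19* had 24.4 and 21.6 CPM in Htt25Q [V], 55.4, 43.5 and 28.7 CPM in Htt103Q [V], 19.6, 22.1 and 17.9 CPM in Htt25Q [SLX5], and 35.4, 27.0 and 31.3 CPM in Htt103Q [SLX5]. Every Htt103Q library was above every Htt25Q library, and the log2 fold change was 0.89 (SE 0.22, adjusted p = 0.00548) with the vector and 0.66 (SE 0.20, adjusted p = 0.0153) with *SLX5*. *RPC19* is the least certain of the counts, because its reads were divided with YNL114C, a reading frame whose systematic name places it on the opposite strand: the estimated counts of both were fractional but summed to a whole number in all 11 libraries, and 16.6% to 21.01% of the sum went to *RPC19*. The labels and the study's methods name different library kits, and the strand setting of the counting is not given in the sources used here, so reads of the 2 genes cannot be told apart. For the sum of both, an alternative chosen after seeing the data, the log2 fold change was 0.76 (SE 0.19, adjusted p = 0.00598) with the vector and 0.46 (SE 0.17, adjusted p = 0.0378) with *SLX5*. The counts of the other 9 genes were whole numbers in all libraries.

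Taken by their calls, *RPA190*, *RPA49*, *RPA43* and *RRN3* were higher in Htt103Q on both plasmids and in all 23 alternative settings of the vector comparison, which include leaving out each library. In that comparison *RPA135* lost its call without Htt25Q [V] a or b or Htt103Q [V] a or b, *RPC40* without any of these or Htt25Q [SLX5] a, and *RPC19* without Htt25Q [V] b. The count of 7 then fell to 4 without Htt25Q [V] b. With *SLX5*, *RPC19* lost its call without Htt25Q [SLX5] c or Htt103Q [SLX5] a.

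**Figure D3:**
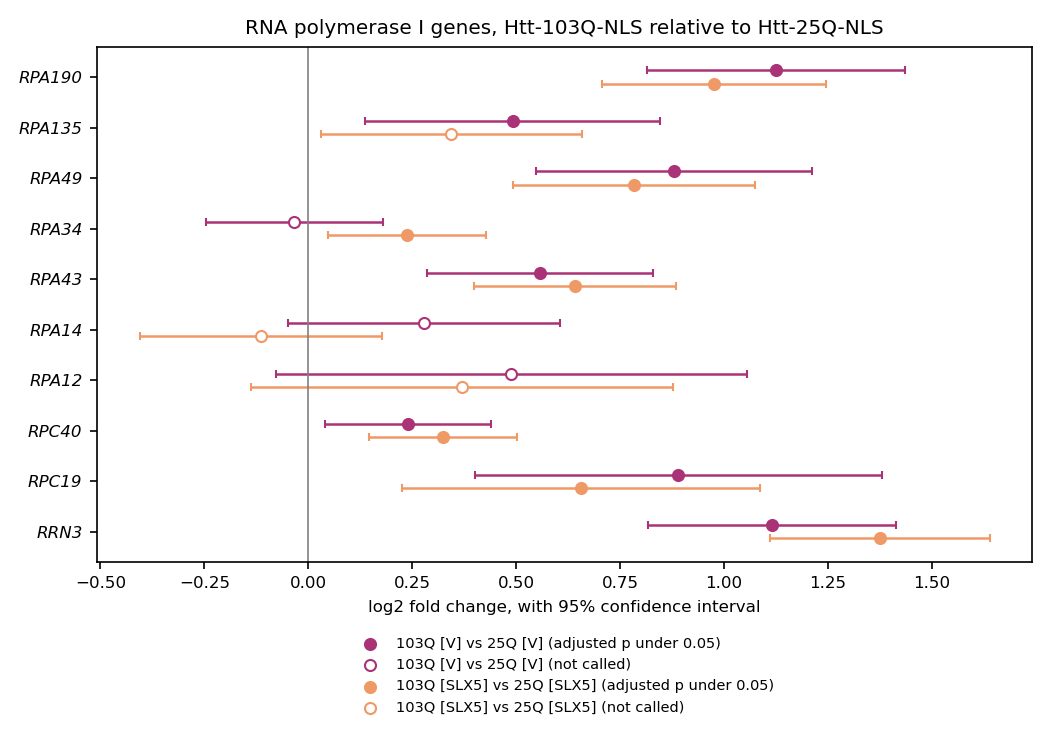
Log2 fold change of Htt103Q over Htt25Q with the empty vector (purple) and with *SLX5* (orange), as points with 95% confidence intervals. Filled points passed an adjusted p of 0.05, and 7 of 10 did so on each plasmid, with *RPA190* at 1.12 and 0.98 and *RRN3* at 1.12 and 1.37.

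With *SLX5*, 7 of 10 genes were likewise higher in Htt103Q [SLX5] than in Htt25Q [SLX5] and none was lower, where 26.9% of all genes were called higher and 26.6% lower. The median was 0.51, against -0.012 over all genes. The groups did not overlap in 9 of the 10, all but *RPA14*, against 31.5% of all genes. With libraries scaled by total counts instead of TMM, the called genes of the whole table split into 64.9% higher rather than 50.3%. Over both plasmids, the 6 libraries of Htt103Q were all above the 5 of Htt25Q for *RPA190*, *RPA135*, *RPA49*, *RPA43*, *RPC19* and *RRN3*, 6 of the 10 genes, and this held for 23.1% of all genes. The difference between the plasmids in the effect of the tract was tested as an interaction, and none of the 10 genes was called (0% of all genes in either direction). No gene of the table was called in this test by edgeR's quasi-likelihood test or by DESeq2, and 348 had an unadjusted p under 0.05 by the former. A likelihood ratio procedure in edgeR, described below, called 1 gene. Without Htt103Q [V] c, the quasi-likelihood test called 3. None of the 10 was among them. The interaction was -0.39 for *RPA14* (95% confidence interval -0.83 to 0.046) and 0.27 for *RPA34* (-0.014 to 0.56), the 2 values farthest from 0 among the 10 genes.

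Extra *SLX5* went with lower values of most of these genes, but no change was called by the quasi-likelihood test on all 11 libraries. In Htt103Q cells, 9 of the 10 log2 fold changes of Htt103Q [SLX5] over Htt103Q [V] were negative, with a median of -0.31 against -0.0014 over all genes, and none of the 10 was called, where 0.0158% of all genes were called higher and 0% lower. The values ran from -0.51 for *RPA12* (adjusted p = 0.210) through -0.45 for *RPC19*, -0.37 for *RPA14*, -0.36 for *RPA43* and -0.34 for *RPA49* to 0.023 for *RPA34*. At an unadjusted p under 0.05 stood 1468 genes of the table, and DESeq2 called 296, none of the 10 among them. The likelihood ratio procedure described below called 95 of 6630 genes lower. Of the 10, only *RPA43* was among these (-0.36, adjusted p = 0.0445 by that procedure). *RPA43* was the only one of the 10 whose Htt103Q [SLX5] libraries (41.1 to 44.1 CPM) were all below its Htt103Q [V] libraries (44.7 to 60.2 CPM), a separation found in 8.43% of all genes. The spread of the Htt103Q [V] libraries bears on all of these values. Library c had all 10 genes below the group mean, by 0.34 on average on the log2 scale, while a and b had all 10 above it. Without library c, 7 genes were called lower with *SLX5*: *RPA12* at -0.79, *RPC19* at -0.67, *RPA14* at -0.54, *RPA49* at -0.51, *RPA43* at -0.49, *RPA135* at -0.45 and *RPA190* at -0.39 (adjusted p = 0.00317 to 0.0279). In that fit 1647 of 6318 genes of the table were called instead of 1, and 754 of them were lower. When library a or b was left out instead, 1 gene of the table was called higher and 0 lower. The 7 calls thus depended on which library was left out.

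In Htt25Q cells, 9 of the 10 log2 fold changes of Htt25Q [SLX5] over Htt25Q [V] were negative too, with a median of -0.23 against 0.0047 over all genes. They were -0.44 for *RPA43* (SE 0.12, adjusted p = 0.379), -0.42 for *RRN3* (SE 0.13, adjusted p = 0.447) and -0.39 for *RPA12* (SE 0.26, adjusted p = 0.684), and *RPA14* was at 0.020. None of the 10 was called, and 3 genes of the table were (0.0158% of all genes higher and 0.0316% lower), with 565 at an unadjusted p under 0.05 and 33 called by DESeq2. For *RPA49*, *RPA43*, *RPA34*, *RPA12*, *RPC40* and *RRN3* all 3 libraries with *SLX5* were below both with the vector, 6 of 10 genes, against 18.8% of all genes.

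Averaged over both tract lengths, the effect of *SLX5* was negative for 10 of 10 genes, with a median of -0.25 against 0.0032 over all genes, and none was called (0.127% of all genes were called higher and 0.0949% lower). The shift was not particular to these genes, since most related lists described below went the same way. *RPA43*, which encodes the subunit that binds Rrn3, came nearest at -0.40 (SE 0.082, adjusted p = 0.0763), and *RPA12* was the lowest at -0.45 (SE 0.17, adjusted p = 0.149). *RPA43*, *RRN3* and *RPA49* were called lower by DESeq2 (adjusted p = 0.00214, 0.0397 and 0.0485), as were 227 of 6321 genes of the table. The same 3 were called lower by a likelihood ratio procedure in edgeR (a test of any difference among the 4 groups, then of each comparison within the genes that passed). That procedure called 235 of 6630 genes lower. Without library c of Htt103Q [V], all 10 were called lower, as were 760 of 6318 genes of the table. Without library a or b of that group, none of the 10 was called, and 3 genes of the table were called lower. *RPA43* is also among the genes that the study picked out from these same libraries as responding to *SLX5* in Htt103Q cells. That list is for Htt103Q cells alone, not for the mean over both tract lengths. The study's list of such genes also holds YNL113W, the systematic name of *RPC19*, there beside another gene name, and YNL114C. The places of *RPA43* and *RPC19* here are thus not independent evidence.

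**Figure D4:**
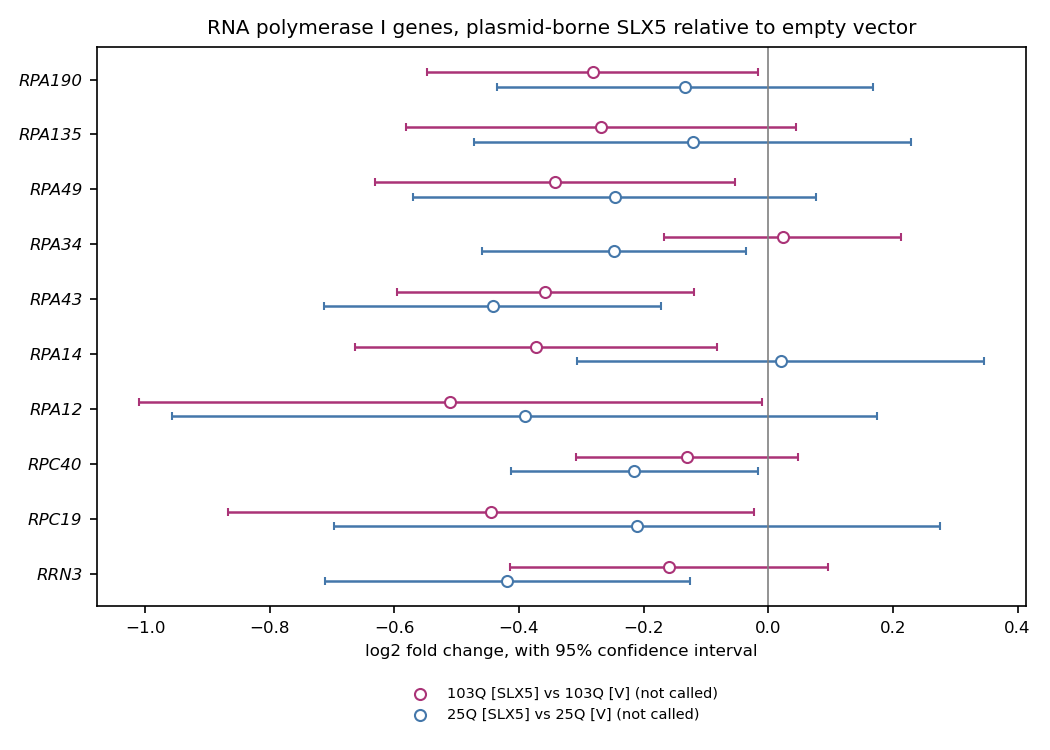
Log2 fold change of *SLX5* plasmid over empty vector in Htt103Q (purple) and Htt25Q (blue) cells, with 95% confidence intervals. All points are open, since none passed an adjusted p of 0.05 in the quasi-likelihood test, and 9 of 10 lie below 0 at each tract length.

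Setting Htt103Q cells with *SLX5* against Htt25Q cells with the vector asks how far the transcripts were from the control when the plasmid was present. Of the 10 genes, 3 were called higher, where 19.8% of all genes were (20.8% were lower): *RPA190* at 0.84 (SE 0.14, adjusted p = 0.00109), *RRN3* at 0.96 (SE 0.14, adjusted p = 0.000509) and *RPA49* at 0.54 (SE 0.15, adjusted p = 0.0149). The *RPA49* call was lost without Htt25Q [V] a or b or Htt103Q [SLX5] a (adjusted p = 0.0535 to 0.106). *RPA135*, *RPA43*, *RPC40* and *RPC19* were between 0.11 and 0.44 and not called. *RPA34*, *RPA14* and *RPA12* were between -0.095 and -0.010. This comparison shares libraries with those above, so its values are not separate evidence.

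The ratio between transcripts of partner subunits also differed between tract lengths. These ratios of TPM are taken within a library and are descriptions with no test. *RPA190* to *RPA135* was 0.33 to 0.37 in the 5 libraries of Htt25Q and 0.49 to 0.63 in the 6 of Htt103Q. *RPA49* to *RPA34* was 0.93 to 0.97 in Htt25Q, near equality, and 1.12 to 2.00 in Htt103Q. *RPA43* to *RPA14* was 0.26 in both libraries of Htt25Q [V], 0.19 in those of Htt25Q [SLX5] and 0.29 to 0.33 in Htt103Q. *RPC40* to *RPC19* went the other way, from 1.84 to 2.07 in Htt25Q to 1.01 to 1.62 in Htt103Q, with the uncertainty of *RPC19* noted above. In none of the 4 ratios did the tract lengths overlap, but how often other pairs of genes separate in this way was not examined. Among single genes, 23.1% had all Htt103Q libraries above all Htt25Q libraries. The ratios restate the changes of the single genes given above and are not separate evidence.

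**Figure D5:**
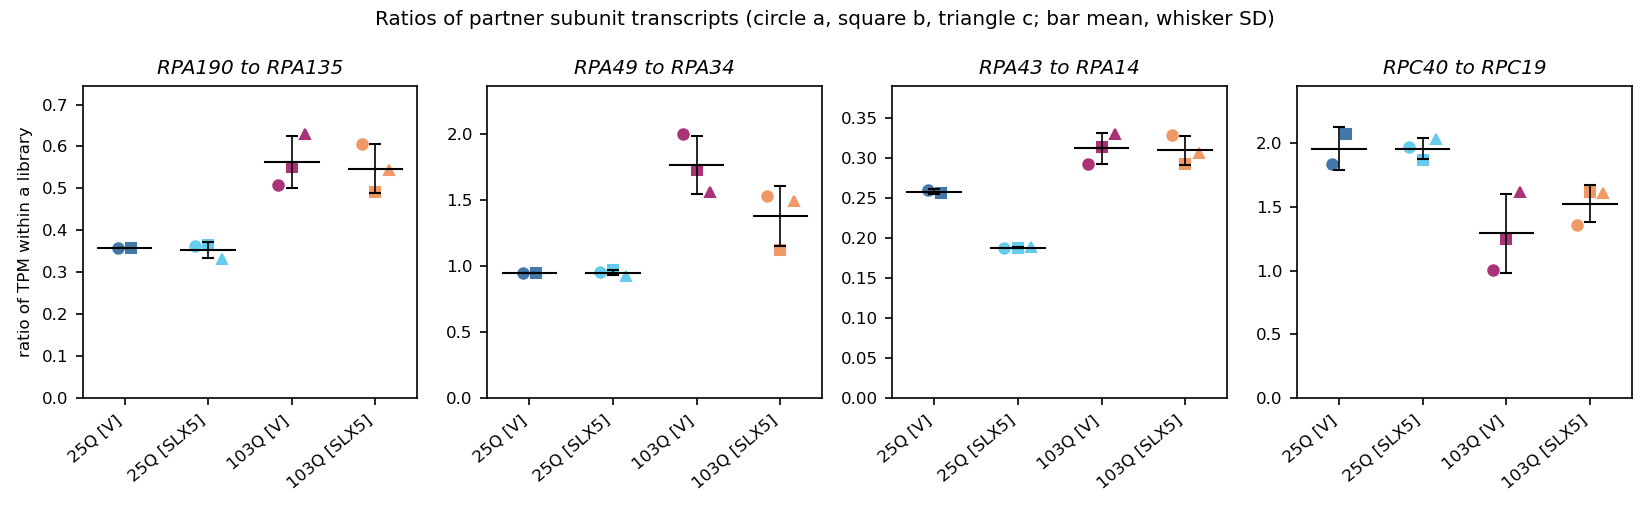
Ratio of the TPM of subunits that sit together in the enzyme, in each library (vertical axes from 0), with the mean (bar) and SD (whisker, n = 2 or 3). The Htt25Q and Htt103Q libraries do not overlap in any of the 4 panels, and *RPA49* to *RPA34* lies at 0.93 to 0.97 in Htt25Q and at 1.12 to 2.00 in Htt103Q. How often other pairs of genes separate in this way was not examined.

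The genes most like the 10 were sought by Pearson's r between log2 CPM and the mean centred profile of the 10 genes over the 11 libraries, among the 5381 genes that averaged 10 CPM or more. The values share libraries and groups and are a description. The 8 most alike were *RRP36*, *FAP7*, *RPF2*, *NOP4*, *NHP2*, *HGH1*, *RPL26B* and *MAK16*, with r of 0.992 to 0.995. Most of these encode ribosome assembly proteins. *RPL26B* has a close paralog, and a division of reads between them was not examined. The 4 most opposite were *KKQ8*, *YFR052C-A*, *COX15* and *CVM1*, with r of -0.995 to -0.990. Such values were common, since 702 genes had r over 0.9 and 911 had r under -0.9. Among the 10 genes themselves, r with their own mean was 0.943 to 0.990 for 7, 0.882 for *RPA12*, 0.661 for *RPA34* and 0.586 for *RPA14*. Each of the 10 is part of that mean, so these r are not comparable with those of the genes outside it.

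The rest of the polymerase I machinery was mixed between Htt103Q [V] and Htt25Q [V], a comparison in which 27.3% of all genes were called higher and 29.5% lower. Of the 5 subunits common to all nuclear polymerases, *RPB5* rose (0.30, adjusted p = 0.00895), *RPB8* fell (-0.26, adjusted p = 0.0302), and *RPO26*, *RPB10* and *RPC10* did not pass. Of 8 further initiation factors, *RRN7* (0.46), *SPT15* (0.35, the TATA-binding protein) and *RRN9* (0.32) rose, *RRN6* (-0.22) fell and 4 did not pass. *RRN7* and *RRN6* belong to the core factor and *RRN9* to the upstream activating factor. Each call named in this paragraph up to here was lost when 1 or more single libraries were left out, Htt25Q [V] a or b among them in every case. Of 12 genes for rDNA chromatin, termination and elongation, *SEN1* (1.09, adjusted p = 1.38e-05), *FOB1* (0.61), *TOP1* (0.34), *NET1* (0.30) and *SPT5* (0.27) rose and *RAT1* (-0.28) fell. *SEN1* encodes an RNA helicase of transcription termination and *FOB1* the replication fork barrier protein of the rDNA. *SEN1*, *FOB1* and *SPT5* kept their calls without any 1 library, *TOP1* and *NET1* lost theirs without Htt25Q [V] a, and *RAT1* without Htt25Q [V] a or b, Htt103Q [V] b or c or Htt103Q [SLX5] c. *NET1* also lost it without Htt25Q [V] b.

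Of the 7 genes of the t-UTP subcomplex, which joins the rRNA precursor as it is made, 5 rose and none fell, where 27.3% of all genes were called higher and 29.5% lower. These were *UTP10* (0.63), *UTP8* (0.60), *UTP9* (0.54), *UTP15* (0.53) and *NAN1* (0.39), with *UTP4* at -0.049 and *UTP5* at 0.15. The median of 0.53 was close to that of the 10 polymerase I genes. All but *NAN1*, which lost its call without Htt25Q [V] a, kept theirs without any 1 library, and the same 5 rose with *SLX5*.

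Polymerases II and III allow a comparison of like subunits, again beside 27.3% of all genes called higher and 29.5% lower. Of 10 subunits particular to polymerase III and its repressor *MAF1*, 5 rose in Htt103Q [V], namely *RPO31* (0.93), *RPC11* (0.82), *RPC53* (0.57), *RET1* (0.45) and *RPC25* (0.42, lost without any 1 library of Htt25Q on either plasmid or without Htt103Q [V] a or b), and *MAF1* (-0.60) and *RPC37* (-0.37) fell. Of 7 subunits particular to polymerase II, *RPB2* (0.47) and *RPO21* (0.37) rose and *RPB7* (-0.74), *RPB11* (-0.41) and *RPB3* (-0.23) fell. Among these calls, *RPC37* was lost without Htt25Q [V] a or b or Htt103Q [V] b or c, *RPB11* without Htt25Q [V] a, and *RPB3* without Htt25Q [V] b or Htt103Q [V] a or b. The genes of both catalytic subunits were thus higher in Htt103Q [V] for polymerase I (*RPA190*, *RPA135*), polymerase II (*RPO21*, *RPB2*) and polymerase III (*RPO31*, *RET1*), a grouping made after the values were seen. The scaffold genes went apart: *RPC40* and *RPC19* rose, while *RPB3* and *RPB11*, their polymerase II counterparts, fell. Of the stalk genes, *RPA43* and *RPC25* rose and *RPB7* fell, while their partners *RPA14* (0.28), *RPC17* (0.18) and *RPB4* (0.16, adjusted p = 0.0537) did not pass. With *SLX5*, *RPB4* was called higher (0.25, adjusted p = 0.00483) and *RPB7* lower (-0.39). The cleavage-related *RPC11* rose while *RPA12* (0.49) and *RPB9* (-0.060) did not pass.

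Regulators of ribosome biogenesis genes were mixed, with 4 of 12 higher and 3 lower, shares near the 27.3% and 29.5% of all genes. *TOD6* (0.85) and *DOT6* (-0.66), paralogs that encode repressors binding PAC, were called in opposite directions, and *STB3* (-0.31), which encodes the RRPE-binding repressor, fell. *SCH9* (0.53), *IFH1* (0.40) and *RIM15* (0.37) rose and *FHL1* (-0.54) fell. The *STB3* and *IFH1* calls were lost without Htt25Q [V] a or b or Htt103Q [V] a, and that of *STB3* also without Htt103Q [V] b. With *SLX5*, *TOD6* (0.90), *DOT6* (-0.56) and *STB3* (-0.26) were called in the same directions, the last not without any 1 of Htt25Q [SLX5] a, b or c or Htt103Q [SLX5] a or c. Of 137 genes of cytosolic ribosomal proteins, 18 were higher and 16 lower with a median of 0.024, against 0.52 for the polymerase I genes. Those with the smallest adjusted p were *RPL12B* (-0.43), *RPL7A* (0.63), *RPL7B* (1.03) and *RPL8A* (-1.005), which have close paralogs. Whether reads were divided between those paralogs was not examined. The mean effect of *SLX5* over both tract lengths was negative for 7 of 7 t-UTP genes (median -0.22). It was negative for 10 of 11 genes of the polymerase III list (-0.18) and 5 of 5 common subunits (-0.16). The same held for 126 of 137 ribosomal protein genes (-0.089). Of the polymerase II subunits 5 of 7 were negative (-0.048), and of the regulators 5 of 12 (0.014).

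The motif pair was also described outside the 10 genes. Of 253 tested genes with both cores in their window and not among the 10, 132 (52.2%) were called higher in Htt103Q [V] and 33 (13%) lower, with a median log2 fold change of 0.31. With a PAC core alone the shares were 29.5% and 29.5% of 899 genes (median 0.0020), with an RRPE core alone 39.2% and 24.6% of 268 (median 0.073), and with neither 25.6% and 32.5% of 4334 (median -0.058). With *SLX5*, 55.3% of the genes with both cores were called higher and 9.49% lower. *RPA34* and *RPA14*, which hold both cores, did not follow this in Htt103Q [V], and *RPC19*, with a PAC core alone, did. In the mean effect of *SLX5* the genes with both cores had a median of -0.16, against -0.25 for the 10 polymerase I genes and 0.020 for genes with neither core.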

How the data were processed

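Expected counts, TPM and FPKM were deposited by the authors per gene: paired-end reads of a pooled HiSeq run were demultiplexed with bcl2fastq 2.17, trimmed with Trimmomatic 0.36, aligned with STAR 2.5.1 to the Ensembl EF4 build of S288C and estimated with RSEM 1.2.22. The labels and the paper name different library kits, which was not settled. FPKM served only to check the order of levels. A further Htt25Q [V] library, set aside by the authors for rRNA, was not analysed here. Estimated counts were rounded and tested in edgeR 4.0.16 (R 4.3.3) with filterByExpr, TMM factors and the quasi-likelihood test on all 11 libraries, 1 mean per group, and p-values were adjusted over 6321 genes. Confidence intervals used the moderated degrees of freedom. The fit was tested on simulated data. DESeq2 1.42.0 and 22 other settings were alternatives. The replicate spread is between clones (typical coefficient of variation 11.0%).

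All 10 genes and SLX5 were named. Of the other lists, the text names up to 4 genes with the smallest adjusted p in Htt103Q [V] against Htt25Q [V], and every gene called in a direction where 5 or fewer were. The genes and lists were chosen with earlier results of these data known. The EF4 files hold no coordinates, and those given are RefSeq's for R64. Coding lengths were equal in both for 94.4% of 6007 genes.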

Additional observations from a re-analysis of the deposited data

How the results depend on the processing

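For the polymerase I genes, 23 alternatives gave 4 to 9 genes higher in Htt103Q [V] over Htt25Q [V], 4 to 9 in Htt103Q [SLX5] over Htt25Q [SLX5] and none lower in either. Leaving out single libraries gave 4 to 9 in the first, 5 to 9 in the second and 2 to 4 in Htt103Q [SLX5] over Htt25Q [V]. Without the 4 libraries lettered a the second count was 4, and in a fit of the groups compared alone the last was 5. Genes lower with *SLX5* in Htt103Q cells numbered 0 to 7 when single libraries were left out and 1 by the likelihood ratio procedure, and in the mean over both tract lengths 0 to 10, 3 and, by DESeq2, 3. Over the whole table the called genes fell from 3589 to 2198 in Htt103Q [V] over Htt25Q [V] without the libraries lettered a, from 3379 to 2115 with *SLX5* and from 2566 to 902 in Htt103Q [SLX5] over Htt25Q [V], and the mean *SLX5* effect had 14 called genes, 522 by DESeq2, 494 by the likelihood ratio procedure and 1567 without Htt103Q [V] c. For *SLX5* in Htt103Q cells the likelihood ratio procedure called 302. Scaling by total counts gave 64.9% rather than 50.3% higher among called genes in Htt103Q [SLX5] over Htt25Q [SLX5] and 60.7% rather than 48.8% in Htt103Q [SLX5] over Htt25Q [V].

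Some changes that were not called turned sign. In Htt103Q [V] over Htt25Q [V], *RPA34* was 0.034 by total counts, 0.0094 with the block and -0.10 to 0.074 without single libraries. With *SLX5* in Htt103Q cells, *RPA34* was -0.078 to 0.098 without single libraries, and in Htt25Q cells *RPA14* was -0.021 by total counts and -0.074 to 0.12 without single libraries. The interaction was -0.030 for *RPA43* and 0.080 for *RPA12* without the libraries lettered a, and without single libraries it was -0.040 to 0.20 for *RPA43*, -0.39 to 0.11 for *RPA12*, -0.32 to 0.035 for *RPA135*, -0.26 to 0.018 for *RPA49* and -0.46 to 0.0053 for *RPC19*. In Htt103Q [SLX5] over Htt25Q [V], *RPA34* was 0.0054 with RLE factors, 0.051 by total counts, 0.0055 by DESeq2, 0.0048 with a mean filter of 10 CPM, 0.037 with the block, 0.056 without the libraries lettered a and -0.050 to 0.031 without single libraries. There *RPA12* was 0.041 by total counts, 0.11 with the block and -0.13 to 0.096 without single libraries, and *RPA14* was 0.023 without the libraries lettered a and -0.19 to 0.0042 without single libraries. The cause of these changes was not tested.

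The clone letters were not taken to pair the samples. Of 15 same-letter pairs, 7 had r over 0.1 (-0.14 to 0.21, against -0.23 to 0.23 for other letters). These r compare deviations from group means, so those of a group are tied to each other. For the 2 libraries of Htt25Q [V] they are mirror images, so the range for other letters is symmetric by construction. A library was closest to its own letter in 17 of 30 cases, where 11 would follow if each library of the other group were equally likely. The 30 cases are tied in the same way, so these counts cannot decide whether letters pair the samples. The libraries lettered a had the higher rRNA shares. Whether a letter marks a shared step was not tested. With the letter as a replicate block, 8 genes were higher in Htt103Q [V] over Htt25Q [V], 7 with *SLX5* and 4 in Htt103Q [SLX5] over Htt25Q [V], and none was lower with *SLX5*. With 2 libraries in Htt25Q [V], the precision of the comparisons with that group is the lowest.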
